A study of Mus musculus with 10 samples.

Results

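The genes described here are the intracellular lipases that strip fatty acids from stored triglyceride and the small proteins that switch them on or off, measured in interscapular brown adipose tissue (iBAT). They were chosen by name as 10 genes, Pnpla2, Lipe, Mgll, Abhd5, G0s2, Hilpda, Pnpla3, Abhd6, Ces1d and Ces1f, out of 41249 genes in the count tables, by a rule that names genes and sets no threshold on a measured value. Whole iBAT was sequenced from 5 Axl KO and 5 WT littermate male mice, 1 library per mouse. All 10 mice had free access to a high-fat diet (HFD) for 24 weeks from an age of 6 to 8 weeks per the series' design text, and were kept at room temperature. The paper gives a slightly longer diet and an older age at its start. Axl KO mice were constitutive whole-body knockouts carrying the Axl tm1a(EUCOMM)HMGU allele, a knockout-first cassette with lacZ and neo placed between exons 4 and 5, made from ES cells of a pair of clones. Axl encodes a receptor tyrosine kinase, and the loss was not limited to brown adipocytes, so other cell types and organs lacked it too. The comparison asked how iBAT of HFD-fed mice differs when Axl is missing.

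Stored triglyceride is cut in steps. Adipose triglyceride lipase, ATGL (gene Pnpla2), removes the first fatty acid, hormone-sensitive lipase, HSL (Lipe), takes the diglyceride, and monoglyceride lipase (Mgll) frees the last fatty acid from glycerol. ATGL needs the co-activator CGI-58 (Abhd5), which perilipin-1 holds on the droplet coat until a beta-adrenergic, cAMP-driven signal releases it, and it is inhibited by the small proteins G0S2 and HIG2 (Hilpda). In brown fat the released fatty acids activate UCP1 and are the fuel for heat production. Much of this control is by phosphorylation and binding, which transcript counts do not measure.

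The labels and the tissue were checked first. Axl stood at 2.01, 1.95, 1.75, 0.437 and 1.69 counts per 1000000 normalized counts of the library (CPM) in Axl KO replicates 1 to 5, and at 52.3, 38.2, 41.3, 38.5 and 45.2 CPM in WT replicates 1 to 5. It fell by 4.77 on the log2 scale (SE 0.20, adjusted p = 1.10e-07, edgeR quasi-likelihood test, Benjamini-Hochberg over all tested genes). Libraries held between 5431014 and 9580215 counts (median 6645186 in Axl KO and 7748975 in WT). Ucp1, the uncoupling protein that defines brown adipocytes, was at 5561 ± 1197 CPM in Axl KO and 4119 ± 863 CPM in WT (SD, n = 5 each). Markers of other cells were present to an unequal degree. The sum of 10 skeletal muscle genes ran from 5.26 to 3112 CPM in Axl KO (median 571.6) and from 751 to 3714 CPM in WT (median 2918), all 10 genes having a lower mean in Axl KO and none an unadjusted p under 0.05. The sum of 6 white adipocyte genes was 632.4 CPM in Axl KO replicate 3 and 195.7 to 300.3 CPM in the other Axl KO mice, against 263.4 to 575.8 CPM in WT. Most of this sum was Lep, leptin, at 175.8 to 594.8 CPM in Axl KO and 212.3 to 538.3 CPM in WT, while Agt and Trim14 stayed below 1.4 CPM, Hoxc9 was at 0 in every mouse and Hoxc10 reached at most 0.106 CPM. Of 10 brown adipocyte genes, 9 had a higher mean in Axl KO and 5 of these (Ucp1, Dio2, Cox8b, Cox7a1 and Elovl3) an unadjusted p under 0.05, with no overlap for Dio2 and Cox8b. In whole tissue, fewer cells of a type and less RNA per cell cannot be told apart.

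No lipase or regulator passed the test between genotypes. All 10 genes were abundant enough to be tested (a mean above 1 CPM over the 10 mice, 13739 genes in all), and 0 of 10 had an adjusted p under 0.05 in edgeR (0.571 to 0.933) or in DESeq2. Over all tested genes, edgeR called only Axl, 0.00728%, and DESeq2 called 9 genes, 0.0655%. Before adjustment, 2 of the 10 genes, Abhd5 and Abhd6, had p under 0.05, both higher in Axl KO, where 8.40% of all tested genes had such a p, 4.54% with the higher level in Axl KO and 3.86% with the lower. In 1 of the 10, Abhd6, the genotypes did not overlap, against 1.35% of all tested genes in either direction and 0.735% with every Axl KO mouse above every WT mouse. The mean was higher in Axl KO for 6 genes and lower for 4 (49.8% of all tested genes were higher). The median log2 fold change of the 10 genes was 0.08, against −0.00059 over all tested genes. Together the 10 genes made up between 0.669% and 0.803% of normalized counts in each mouse.

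**Figure D1:**
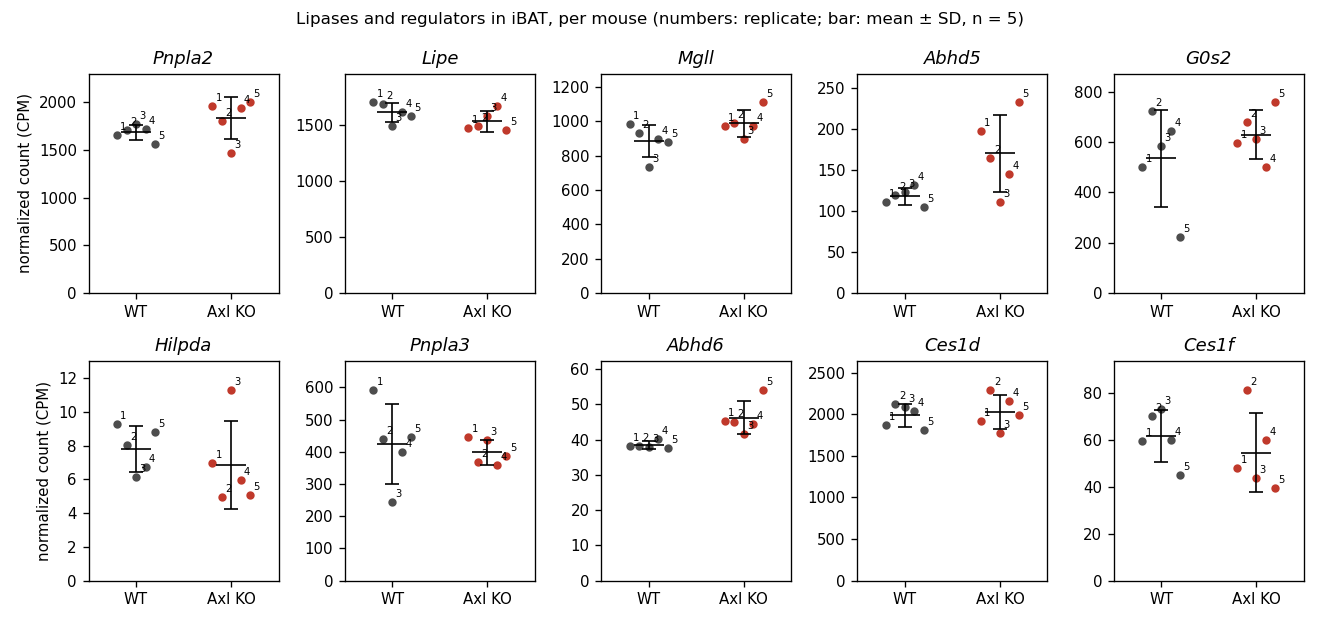
Level of each of the 10 genes in every mouse, in CPM (linear axes that differ between panels), with 1 point per mouse and the mean and SD of each genotype (n = 5 Axl KO and 5 WT). Only the Abhd6 panel shows no overlap, the Axl KO mice lying between 41.7 and 54.2 CPM and the WT mice between 37.5 and 40.2 CPM, while in the Abhd5 panel 4 Axl KO mice lie above all WT mice and 1 within them.

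Pnpla2 (ENSMUSG00000025509, GRCm38 chr7:141455198-141460743, plus strand), the gene of ATGL, was at 1963, 1809, 1469, 1944 and 2001 CPM in Axl KO replicates 1 to 5 and at 1658, 1709, 1771, 1722 and 1560 CPM in WT replicates 1 to 5. Thus 4 Axl KO mice lay above every WT mouse and 1, replicate 3, lay below every WT mouse. The means were 1837 ± 218 and 1684 ± 80.3 CPM, and the log2 fold change of 0.13 (SE 0.08) did not pass the test (adjusted p = 0.682, edgeR). An exact permutation test over all ways to split 10 mice into 5 and 5 gave a two-sided p = 0.175.

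Abhd5 (ENSMUSG00000032540, chr9:122351608-122381524, plus strand), the co-activator of ATGL, had the largest difference of the 10 genes on the log2 scale. It stood at 197.7, 164.6, 111.0, 145.6 and 232.6 CPM in Axl KO replicates 1 to 5, against 110.7, 119.3, 123.4, 131.9 and 105.1 CPM in WT replicates 1 to 5. Here too 4 Axl KO mice exceeded every WT mouse, and replicate 3 lay inside the WT range. The Axl KO mean of 170.3 ± 46.9 CPM was 44.2% above the WT mean of 118.1 ± 10.5 CPM. The log2 fold change was 0.53 (SE 0.16, unadjusted p = 0.00579, adjusted p = 0.571, edgeR). For this gene alone the exact permutation test gave p = 0.0317, unadjusted for the number of genes. The coefficient of variation was 27.5% among Axl KO and 8.91% among WT mice, where the median tested gene had 13.3% and 11.3%. Of the exon bases of Abhd5, 15.95% are shared with the antisense gene A730085K08Rik, and the use of strand in counting is not given in the sources used here, so counts of the pair cannot be told apart there.

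G0s2 (ENSMUSG00000009633, chr1:193272161-193273217, minus strand), which codes for the inhibitor that binds ATGL, was at 595.6, 679.2, 610.7, 499.7 and 758.0 CPM in Axl KO and at 501.4, 725.0, 585.9, 643.0 and 224.5 CPM in WT mice, replicates 1 to 5 in turn. A single WT mouse, replicate 5, lay far below the other 9, and the genotypes otherwise covered the same range. The means were 628.7 ± 96.6 and 536.0 ± 192 CPM (log2 fold change 0.23, SE 0.24, adjusted p = 0.805, edgeR). Without WT replicate 5 the log2 fold change was 0.034 (SE 0.13).

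Hilpda (ENSMUSG00000043421, chr6:29272488-29275446, plus strand), a hypoxia-inducible inhibitor of ATGL, was the least abundant of the 10, with 27 to 97 counts per library. Its levels were 6.94, 4.96, 11.3, 5.97 and 5.08 CPM in Axl KO and 9.28, 8.04, 6.13, 6.71 and 8.81 CPM in WT mice. Axl KO replicate 3 had the highest level of all 10 mice and 3 other Axl KO mice had the lowest levels. With 6.85 ± 2.62 against 7.79 ± 1.35 CPM, the log2 fold change was −0.16 (SE 0.22, adjusted p = 0.858, edgeR). It moved between −0.44 without Axl KO replicate 3 and −0.063 without Axl KO replicate 2, and was −0.0075 with a skeletal muscle covariate.

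The co-activator and both inhibitors were also set against ATGL within each library, and no ratio separated the genotypes. Abhd5 counts were 10.07%, 9.10%, 7.56%, 7.49% and 11.6% of Pnpla2 counts in Axl KO and 6.68%, 6.98%, 6.96%, 7.66% and 6.74% in WT replicates 1 to 5, so that 3 Axl KO mice were above the highest WT mouse. G0s2 counts were 34.6 ± 6.43% of Pnpla2 counts in Axl KO and 31.5 ± 10.6% in WT. The Hilpda share was 0.392 ± 0.215% in Axl KO and 0.466 ± 0.0985% in WT, with 3 Axl KO mice below the lowest WT mouse and 1 above the highest. These ratios need no scaling between libraries and were not tested.

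**Figure D2:**
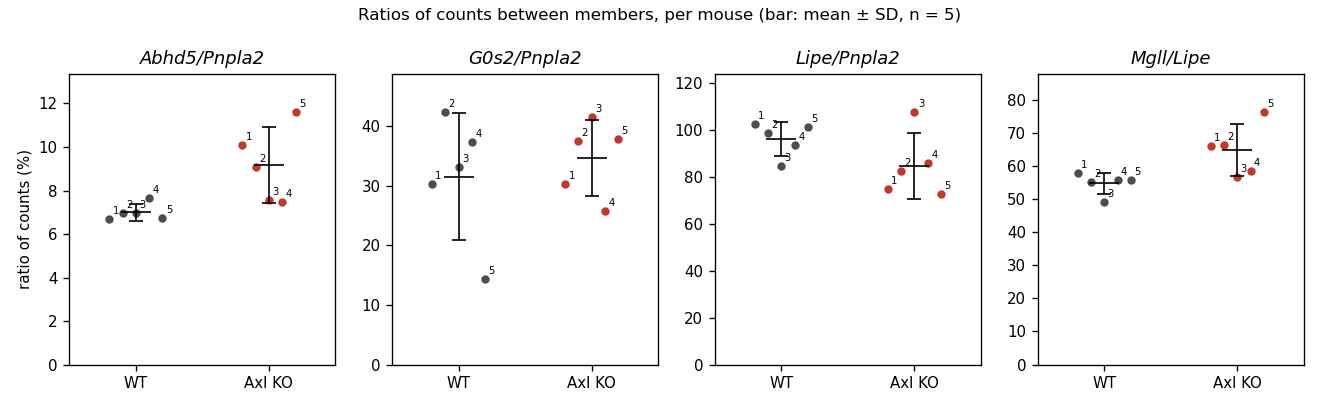
Ratios between pairs of the genes in each mouse, as percent of normalized counts of the second gene, with 1 point per mouse and the mean and SD of each genotype (n = 5 each). For Abhd5 over Pnpla2, 3 Axl KO mice lie above the highest WT value of 7.66%, and for Mgll over Lipe, 4 lie above the highest WT value of 57.8%, while the genotypes overlap in every panel.

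Lipe (ENSMUSG00000003123, chr7:25379527-25398710, minus strand), coding for HSL, varied little, with a coefficient of variation of 5.95% among Axl KO and 5.2% among WT mice. It was at 1469, 1488, 1583, 1667 and 1451 CPM in Axl KO and at 1702, 1682, 1494, 1612 and 1575 CPM in WT mice. The lowest 3 values were all in Axl KO mice, and the other 2 Axl KO mice lay within the WT range. The means of 1531 ± 91.1 and 1613 ± 83.9 CPM gave a log2 fold change of −0.07 (SE 0.06, adjusted p = 0.751, edgeR). Lipe lies on the chromosome that carries the modified Axl allele, and the starts of both genes are 390.0 kb apart. Apart from Axl itself, 12 tested genes, Lipe among them, start within 500 kb of Axl. Their median log2 fold change was 0.06, with 7 of them higher in Axl KO and 0 with an unadjusted p under 0.05. Lipe counts were 84.6 ± 14.0% of Pnpla2 counts in Axl KO and 96.0 ± 7.35% in WT, with overlap. A stretch of 15.6% of Lipe's exon bases is shared with the antisense gene 4732471J01Rik.

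Monoglycerides are handled by Mgll and Abhd6. Mgll (ENSMUSG00000033174, chr6:88724412-88828360, plus strand) was at 969.0, 988.7, 896.8, 973.5 and 1110 CPM in Axl KO and at 984.0, 930.9, 736.3, 897.8 and 881 CPM in WT mice. Only Axl KO replicates 2 and 5 exceeded the highest WT mouse, and the lowest value was WT replicate 3. The means were 987.7 ± 77.2 and 886.0 ± 92.5 CPM (log2 fold change 0.16, SE 0.08, adjusted p = 0.625, edgeR), and the exact permutation test gave p = 0.0873. Mgll counts made up 64.8 ± 7.88% of Lipe counts in Axl KO and 54.8 ± 3.24% in WT, with 4 Axl KO mice above every WT mouse and 1, replicate 3, within the WT range at 56.7%.

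Abhd6 (ENSMUSG00000025277, chr14:8002902-8056763, plus strand), a membrane-bound monoglyceride lipase that also acts on other lipids, was the only gene of the 10 whose genotypes did not overlap. Its levels were 45.4, 45.1, 41.7, 44.5 and 54.2 CPM in Axl KO and 38.2, 38.2, 38.0, 40.2 and 37.5 CPM in WT replicates 1 to 5. The Axl KO mean of 46.2 ± 4.71 CPM was 20.2% above the WT mean of 38.4 ± 1.04 CPM (log2 fold change 0.26, SE 0.07, adjusted p = 0.571, edgeR). In the same comparison 5 of 10 brown adipocyte genes were higher in Axl KO with an unadjusted p under 0.05, against 4.54% of all tested genes. The part of the brown adipocyte genes in the Abhd5 and Abhd6 differences was not tested. For Abhd6 alone the exact permutation test gave a two-sided p = 0.00794, unadjusted for the number of genes. This is the smallest that 5 against 5 mice allow, and it restates the lack of overlap. The WT mice were unusually alike, with a coefficient of variation of 2.72%, where 1487 genes of similar level had a median of 7.52% and only 2.62% of them were lower. Counts behind these values numbered 234 to 361 per library, and 5.30% of the 50-base stretches of Abhd6 transcripts are also found in Gm1833. Across mice Abhd6 was 4.67 ± 0.128% of Mgll in Axl KO and 4.38 ± 0.492% in WT, and these overlapped.

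**Figure D3:**
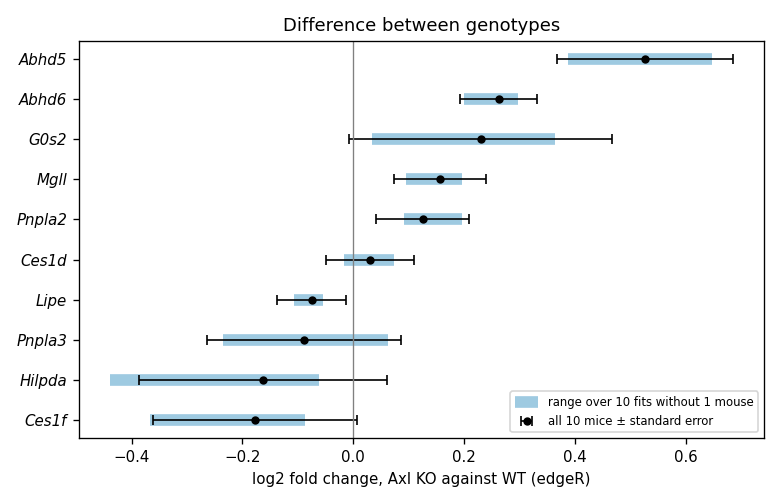
Log2 fold change of each of the 10 genes, Axl KO over WT (edgeR quasi-likelihood fit, n = 5 each), on a log2 axis where 0 is no difference. The estimates run from −0.18 for Ces1f to 0.53 for Abhd5, 6 lie above 0 and 4 below, and no gene has an adjusted p under 0.05.

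Pnpla3 (ENSMUSG00000041653, chr15:84167837-84187236, plus strand) is a close relative of ATGL that binds CGI-58 and is known as a target of the lipogenic factors SREBP-1c and ChREBP. It was at 444.5, 368.1, 435.1, 359.1 and 385.6 CPM in Axl KO and at 592.9, 439.3, 244.4, 397.7 and 444.8 CPM in WT mice. All 5 Axl KO mice lay inside the WT range, which was set by WT replicate 1 at the top and WT replicate 3 at the bottom. Means were 398.5 ± 39.1 and 423.8 ± 125 CPM (log2 fold change −0.09, SE 0.17, adjusted p = 0.908, edgeR). Without WT replicate 1 the sign turned, to 0.06. The same 2 WT mice were also the extremes for Fasn, fatty acid synthase, at 29080 CPM in WT replicate 1 and 8055 CPM in WT replicate 3. In the annotation 6.78% of Pnpla3 exon bases are shared with Gm49513.

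Ces1d and Ces1f are carboxylesterases of the Ces1 cluster on chromosome 8, enzymes of the endoplasmic reticulum and lipid droplet that are best known from liver. Ces1d (ENSMUSG00000056973, chr8:93166068-93197838, minus strand) was at 1918, 2299, 1782, 2161 and 1997 CPM in Axl KO and at 1871, 2126, 2090, 2045 and 1809 CPM in WT mice. The Axl KO mice spread more widely, 2 of them above and 1 below all WT mice, with means of 2031 ± 203 and 1988 ± 140 CPM (log2 fold change 0.03, SE 0.08, adjusted p = 0.933, edgeR). Ces1f (ENSMUSG00000031725, chr8:93256236-93279747, minus strand) was at 47.8, 81.5, 43.7, 60.0 and 39.5 CPM in Axl KO and at 59.5, 70.4, 73.1, 60.0 and 45.1 CPM in WT mice. The highest and the lowest Ces1f values were both in Axl KO mice (54.5 ± 16.9 against 61.6 ± 11.1 CPM, log2 fold change −0.18, SE 0.18, adjusted p = 0.807, edgeR). It was −0.37 without Axl KO replicate 2, the mouse with the most Ces1f (adjusted p = 0.594), and −0.44 with a skeletal muscle covariate (adjusted p = 0.794, edgeR). Of 9 genes of the cluster that were looked up, only Ces1a, at 3.26 ± 0.851 CPM in Axl KO and 2.45 ± 0.212 CPM in WT, was abundant enough to be tested beside this pair. The sum of 8 hepatocyte genes was 0.301 to 2.64 CPM in Axl KO and 0.463 to 1.51 CPM in WT, and Alb, serum albumin, had a mean of 0.0291 and 0.0635 CPM. Ces1d and Ces1f shared 1.08% and 0.903% of their 50-base stretches with other genes.

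Levels of different genes were compared per length, as CPM per kilobase of exons. Over the 10 mice the order from high to low was Ces1d at 848.4, G0s2 at 668.5, Pnpla2 at 583.0, Lipe at 267.1, Pnpla3 at 265.6, Mgll at 184.5, Abhd5 at 24.2, Abhd6 at 17.9, Ces1f at 17.7 and Hilpda at 6.64 CPM per kilobase. The mean level of the inhibitor gene G0s2 was thus just above that of its target ATGL, and the level of the co-activator gene Abhd5 was far below both. Neighbours in this order kept it in 10 of 10 mice for Pnpla2 over Lipe, Pnpla3 over Mgll, Mgll over Abhd5, Abhd5 over Abhd6 and Ces1f over Hilpda. The order held in 9 mice for Ces1d over G0s2 and in 8 for G0s2 over Pnpla2. Lipe and Pnpla3 kept it in only 5 of 10 mice, as did Abhd6 and Ces1f, so the members of these pairs did not differ beyond their spread. With the longest transcript as the length, G0s2 and Pnpla2 changed places, as did Abhd6 and Ces1f.

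**Figure D4:**
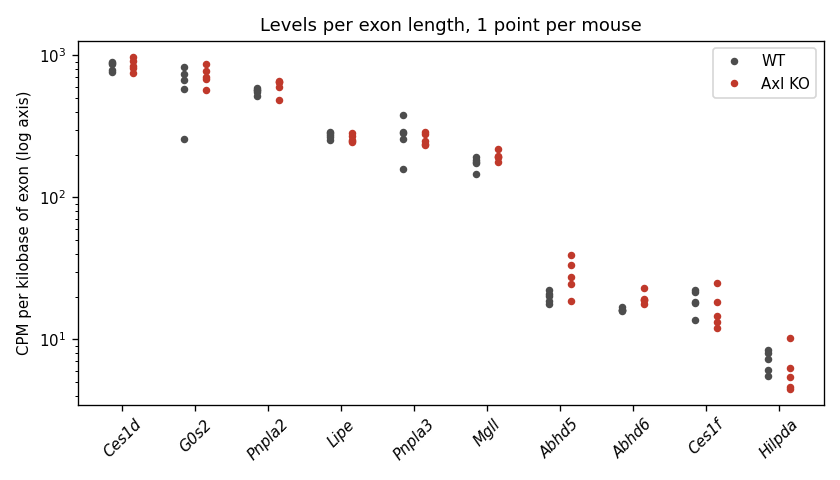
Level of each gene per length of its exons, in CPM per kilobase on a log10 axis, with 1 point per mouse and genotype shown by colour (5 Axl KO and 5 WT). Ces1d, G0s2 and Pnpla2 form the top of the order, with means of 848.4, 668.5 and 583.0, and Hilpda the bottom, with a mean of 6.64.

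Some of the 10 genes varied together from mouse to mouse. Over 45 pairs, 3 had an adjusted p under 0.05 by Pearson's r of log2 CPM (permutation test with 100000 resamples, Benjamini-Hochberg over the 45 pairs, n = 10 mice). Abhd5 and Abhd6 gave r = 0.917 (permutation p = 0.00037, adjusted p = 0.0167) and Spearman's rho = 0.855 (permutation p = 0.00315, adjusted p = 0.0709). Pnpla2 and Abhd5, enzyme and co-activator, gave r = 0.856 (permutation p = 0.00144, adjusted p = 0.0324) and rho = 0.939 (permutation p = 0.00022, adjusted p = 0.0099). Pnpla2 and its inhibitor gene Hilpda gave r = −0.833 (permutation p = 0.00329, adjusted p = 0.0494) and rho = −0.818 (permutation p = 0.00584, adjusted p = 0.0765).

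With the mean of each genotype removed, r was 0.865, 0.847 and −0.811 for these 3 pairs, and the adjusted permutation p rose to 0.127, 0.114 and 0.260. Leaving out the 2 mice farthest from the median of the first gene gave r = 0.813, 0.869 and −0.649 in the 8 remaining mice (adjusted permutation p = 0.126, 0.0561 and 0.363). None of the 45 pairs had an adjusted p under 0.05 under either alternative, so no call held under them. The mice left out were Axl KO replicates 3 and 5 for both pairs with Pnpla2, where r was of the same size for Abhd5 and smaller for Hilpda, and Axl KO replicates 1 and 5 for Abhd5 with Abhd6, where r was somewhat smaller.

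**Figure D5:**
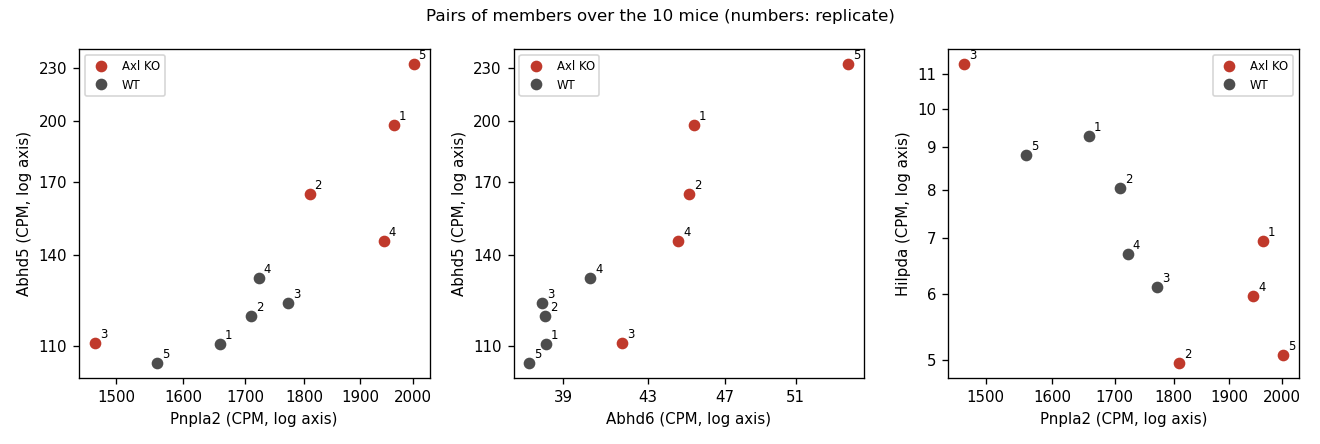
Levels of 3 pairs of genes in the same mouse, in CPM on log axes, with 1 point per mouse and genotype shown by colour (5 Axl KO and 5 WT). Pearson's r of log2 CPM over the 10 mice is 0.917 for Abhd5 with Abhd6, 0.856 for Pnpla2 with Abhd5 and −0.833 for Pnpla2 with Hilpda, and Axl KO replicate 3 lies at the low end of Pnpla2 and the high end of Hilpda.

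The promoters of the genes in these pairs, and of Pnpla3, are shown because cAMP signalling, FOXO1, PPAR and hypoxia-inducible factors are known regulators of lipase genes. Each line gives the 250 bases before a transcription start from RefSeq (GRCm38.p6), 5′ to 3′ on the strand of the gene, with letters that match a searched motif in capitals.
Pnpla2, chr7:141454938-141455187, plus strand: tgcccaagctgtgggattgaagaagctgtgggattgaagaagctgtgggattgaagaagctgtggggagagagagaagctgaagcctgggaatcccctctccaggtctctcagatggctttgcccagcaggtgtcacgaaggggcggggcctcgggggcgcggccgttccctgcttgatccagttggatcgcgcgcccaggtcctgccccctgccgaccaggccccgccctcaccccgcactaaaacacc
Abhd5, chr9:122351366-122351615, plus strand: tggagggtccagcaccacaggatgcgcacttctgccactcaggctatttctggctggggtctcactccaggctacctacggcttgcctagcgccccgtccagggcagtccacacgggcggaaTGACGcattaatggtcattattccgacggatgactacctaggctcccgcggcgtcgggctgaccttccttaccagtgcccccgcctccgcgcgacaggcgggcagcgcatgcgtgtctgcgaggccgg
Abhd6, chr14:8002638-8002887, plus strand: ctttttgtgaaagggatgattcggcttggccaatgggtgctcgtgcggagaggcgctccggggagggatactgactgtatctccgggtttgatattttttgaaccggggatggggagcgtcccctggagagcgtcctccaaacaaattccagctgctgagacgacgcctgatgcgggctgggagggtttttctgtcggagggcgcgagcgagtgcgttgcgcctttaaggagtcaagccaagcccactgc
Hilpda, chr6:29272238-29272487, plus strand: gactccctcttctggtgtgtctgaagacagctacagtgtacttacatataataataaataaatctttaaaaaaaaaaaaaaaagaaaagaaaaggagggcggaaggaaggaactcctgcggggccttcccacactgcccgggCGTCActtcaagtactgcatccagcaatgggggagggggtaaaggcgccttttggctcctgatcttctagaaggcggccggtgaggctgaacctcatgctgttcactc
Pnpla3, chr15:84167566-84167815, plus strand: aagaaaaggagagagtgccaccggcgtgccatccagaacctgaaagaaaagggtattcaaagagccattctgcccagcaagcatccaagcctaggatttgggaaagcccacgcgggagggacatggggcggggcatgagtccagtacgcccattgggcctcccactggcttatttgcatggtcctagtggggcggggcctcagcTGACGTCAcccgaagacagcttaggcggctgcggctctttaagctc

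The motifs, searched on both strands, were the cAMP response element (CRE) TGACGTCA, its half-site TGACG, the FOXO motif GTAAACA, the PPAR response element (PPRE), a direct repeat,, and the hypoxia motif ACGTG (HRE). A full CRE holds the half-site on both strands. The sources held windows for 8 of the 10 genes, 12 windows in all. Only Pnpla3 held the full CRE, 46 bases before its start, a motif found in 1.55% of all 32851 windows of this length. Half-sites were found for 4 of 8 genes, 5 of the 12 windows, against 17.8% of all windows. One of them lies 128 bases before the start of Abhd5 and another 108 bases before that of Hilpda. The shown windows of Pnpla2 and Abhd6 held none of the 5 motifs. FOXO motifs occurred for 2 genes, Lipe and Mgll, in 2 of the 12 windows, against 3.17% of all windows. HRE motifs occurred for 3 genes, Lipe, Mgll and Hilpda (at another start), in 4 of the 12 windows, against 16.6%. No window of the 8 genes held the PPRE, which 0.0335% of all windows held. Matches are letters in a sequence and were not measured as sites.

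Axl KO replicate 3 stood apart from the other Axl KO mice in several of these genes, with the lowest Pnpla2, Mgll, Abhd5, Abhd6 and Ces1d and the highest Hilpda of its genotype. It also had the highest sum of white adipocyte genes of all 10 mice, 632.4 CPM, of which Lep made up 594.8 CPM, and the lowest sum of 10 brown adipocyte genes among Axl KO mice, 8432 CPM, against 8994 to 11620 CPM in the other Axl KO and 6544 to 8686 CPM in WT mice. Their part in the result was not tested. Without this mouse, 5 of the 10 genes had an unadjusted p under 0.05 in edgeR, against 14.8% of all tested genes, while 0 of the 10 and 0.00729% of all tested genes passed the adjusted threshold. Their log2 fold changes were then 0.65 for Abhd5 (adjusted p = 0.107), 0.30 for Abhd6 (adjusted p = 0.128), 0.20 for Pnpla2 (adjusted p = 0.174), 0.19 for Mgll (adjusted p = 0.328) and −0.44 for Hilpda (adjusted p = 0.266, edgeR). DESeq2 without this mouse, an alternative chosen after seeing the data, called 3 of the 10 genes, all higher in Axl KO, namely Abhd5 (adjusted p = 0.000314), Pnpla2 (adjusted p = 0.0283) and Abhd6 (adjusted p = 0.0497). The same fit called 1.68% of all tested genes, 1.06% as higher in Axl KO. When DESeq2 left out each of the other 9 mice in turn, 0 of the 10 genes were called, and the adjusted p lay between 0.248 and 0.817 for Abhd5, 0.764 and 1.00 for Pnpla2, and 0.401 and 0.864 for Abhd6. At the other end, Axl KO replicate 5 had the highest Pnpla2, Mgll, Abhd5, Abhd6 and G0s2 of its genotype. Without replicate 5 the log2 fold changes in edgeR were smaller, 0.39 for Abhd5, 0.20 for Abhd6, 0.09 for Pnpla2, 0.11 for Mgll and −0.08 for Hilpda.

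Signalling genes that drive or restrain lipolysis were counted next, from beta-adrenergic receptors through adenylyl cyclases and protein kinase A to phosphodiesterases. The list also held natriuretic peptide and insulin signalling genes, inhibitory G protein subunits and receptors that restrain lipolysis. Since it mixes genes of opposite effect, its counts and median give no direction of lipolytic signalling. Of 42 genes, all tested, 21 had a higher and 21 a lower mean in Axl KO, with a median log2 fold change of −0.00066, and 0 passed the test. Before adjustment 1 was higher and 1 lower with p under 0.05, or 2 of 42, below the 8.40% of all tested genes. The higher one was Adcy3, an adenylyl cyclase that makes cAMP, at 208.8, 196.0, 147.5, 196.6 and 361.0 CPM in Axl KO and 130.8, 147.3, 113.9, 146.7 and 130.2 CPM in WT replicates 1 to 5. The genotypes did not overlap, as in 1.35% of all tested genes, and Axl KO replicate 3 lay just above WT replicate 2 (log2 fold change 0.73, SE 0.19, adjusted p = 0.571, edgeR). Gnai2, a subunit of the inhibitory G protein, was at 48.9 ± 6.91 CPM in Axl KO and 60.1 ± 7.17 CPM in WT (log2 fold change −0.30, adjusted p = 0.571, edgeR). The receptor gene Adrb3, named for its role although outside the naming rule, was at 271.6 ± 58.6 and 263.4 ± 21.0 CPM (adjusted p = 0.941, edgeR). Pde3b, a phosphodiesterase through which insulin restrains lipolysis, was at 512.5 ± 38.0 and 514.7 ± 37.2 CPM (adjusted p = 0.993, edgeR). The abundant Gnas, the stimulatory G protein subunit, was at 3270 ± 363 and 2875 ± 261 CPM (adjusted p = 0.599, edgeR), and Prkar2b, a regulatory subunit of protein kinase A, at 1528 ± 116 and 1564 ± 85.9 CPM (adjusted p = 0.910, edgeR).

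Proteins of the droplet coat and fatty acid carriers, on which the lipases work or to which they hand their products, gave 8 higher and 11 lower among 19 tested genes (median log2 fold change −0.05), and 0 passed the test. Plin1, the coat protein that holds CGI-58 at rest, was at 1080 ± 112 CPM in Axl KO and 1157 ± 38.3 CPM in WT (adjusted p = 0.718, edgeR). Plin5, which can bind both ATGL and CGI-58 in oxidative tissue, was at 342.5 ± 29.5 and 319.5 ± 18.6 CPM (adjusted p = 0.698, edgeR). These 2 genes were picked for their role. An unadjusted p under 0.05 was found for 3 of 19, against 8.40% of all tested genes, namely Bscl2, seipin, at 175.8 ± 22.6 against 147.2 ± 8.35 CPM, Plin4 at 865.0 ± 124 against 1016 ± 53.8 CPM, and Cideb at 2.30 ± 1.11 against 3.78 ± 1.41 CPM (adjusted p = 0.571, 0.571 and 0.588, edgeR).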

How the data were processed

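Gene counts were obtained from whole iBAT of 5 Axl KO and 5 WT mice. Per the submitters' processing notes, the authors used bcl2fastq, Trimmomatic 0.36, STAR 2.6.1c and DESeq2 with GRCm38.p5, while the methods of the paper name other trimming and alignment tools. The counting tool and its strand setting are not given in the sources used here. The authors deposited raw, whole-number read counts per gene and mouse, with no normalization. Of 41249 gene identifiers, 41163 matched GENCODE vM21 (GRCm38), which gave symbols, coordinates and exon lengths. The members and gene lists were chosen with earlier results of these data known.

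Counts were scaled with TMM in edgeR 4.0.16 (R 4.3.3), genes with a mean above 1 CPM over the 10 mice were kept, and genotypes were compared with glmQLFit and glmQLFTest, with a Benjamini-Hochberg adjusted p under 0.05 as the threshold. SE is that of the log2 fold change, and ± is SD with n = 5 mice. DESeq2 1.42.0, other filters and scalings, a replicate block, a skeletal muscle covariate and leaving out each mouse were alternatives. Correlations between the 10 genes used log2 CPM without a prior count. A prior count of 0.5 entered only the skeletal muscle covariate and the check of replicate numbers. Scripts were tested on simulated data. Named genes were the 10 members, Axl, and in each list the 3 most abundant genes and up to 5 with the lowest unadjusted p under 0.05, with others marked as picked. With 5431014 to 9580215 counts per library, the precision of Hilpda (27 to 97 counts) was limited most by counting. Libraries are separate mice. The main test did not pair the mice by replicate number.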

Additional observations from a re-analysis of the deposited data

Results flagged for a closer look

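Of 40 groups of 5 mice examined for a single mouse far from the others (the gap to the nearest mouse above 0.71 of the range of the group), 4 met the criterion, where chance gives about 2. Abhd6 in WT replicate 4 was at 40.23 CPM, with the nearest WT mouse at 38.22 CPM, a gap of 0.736 of the range. Axl in Axl KO replicate 4 was at 0.437 CPM, with the nearest Axl KO mouse at 1.69 CPM (0.801 of the range), which is 3 counts in that library. The ratio of Hilpda to Pnpla2 in Axl KO replicate 3 was 0.770%, with the next Axl KO mouse at 0.354% (0.807 of the range). The ratio of Mgll to Lipe in WT replicate 3 was 49.3%, with the nearest WT mouse at 55.4% (0.711 of the range).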

How the results depend on the processing

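No gene of the 10 was called by edgeR under any alternative, including each mouse left out in turn (0 to 0), and Axl stayed the 1 gene called. The number of the 10 with an unadjusted p under 0.05 ran from 2 to 5 when 1 mouse was left out, 5 being without Axl KO replicate 3, and their median log2 fold change from 0.02 to 0.13. DESeq2 called 9 genes, and between 1 and 231 with 1 mouse left out (231 without Axl KO replicate 3, 5, 7, 3 and 8 without Axl KO replicates 1, 2, 4 and 5, and 6, 10 and 3 without WT replicates 2, 4 and 5), with 0 to 3 of the 10 genes among them. The difference in Ces1d turned to −0.028 with a skeletal muscle covariate and to −0.017 and −0.0013 without Axl KO replicate 2 and WT replicate 5 (range over single mice left out −0.017 to 0.074), and that in Pnpla3 to 0.063 without WT replicate 1 (range −0.235 to 0.063). The cause was not tested. Pairs of the 10 genes with an adjusted p under 0.05 numbered 0 both with genotype means removed and without the 2 extreme mice, and 6 of 10 genes kept their place in the order of levels with the longest transcript as the length. With the replicate number as a block, 0 of the 10 genes and 1 gene overall were called, 2 had an unadjusted p under 0.05 and the median was 0.07. Same-numbered mice did not deviate together (correlations −0.09, 0.23, −0.03, 0.03 and −0.23), and 1 of 5 correlated best with its own number. With 5 pairs this does not show whether same-numbered mice shared a litter, cage or batch.

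Depth limited Hilpda most, and transcript counts measure neither protein nor enzyme activity. The 5 mice of each genotype share 1 diet and 1 tissue. Skeletal muscle markers were unequal between mice, as was the sum of white adipocyte genes, which was mostly Lep.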

Other observations

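Other lipid hydrolases beyond the 10 genes were counted as a list of 44, of which 24 were tested. Of these, 14 had a higher and 10 a lower mean in Axl KO (median log2 fold change 0.04), and 0 passed the test in edgeR. An unadjusted p under 0.05 was found for 4 of 24, against 8.40% of all tested genes, namely Ddhd2, a phospholipase, at 390.6 ± 86.3 CPM in Axl KO and 302.7 ± 41.6 CPM in WT, Abhd12 at 50.1 ± 3.68 and 45.1 ± 2.56 CPM, Pnpla7 at 27.2 ± 2.04 and 31.0 ± 1.82 CPM, and Abhd17a at 42.3 ± 3.92 and 48.1 ± 4.46 CPM (SD, n = 5 each). Lpl, the lipase that brings fatty acids in from blood lipoproteins, was at 2703 ± 468 and 2418 ± 240 CPM (adjusted p = 0.704, edgeR).

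Targets of PPARA, the nuclear receptor that fatty acids activate, had a higher mean in Axl KO for 18 of 20 tested genes (median log2 fold change 0.12), with 0 past the test and 4 with an unadjusted p under 0.05, where 4.54% of all tested genes were higher with such a p. Among the 4 were Acot1 at 5.11 ± 2.40 and 1.98 ± 0.655 CPM, Acot2 at 110.7 ± 9.10 and 95.4 ± 7.67 CPM, and Slc25a20 at 809.9 ± 63.3 and 731.3 ± 34.4 CPM. In the same mice the brown adipocyte genes had a higher mean in Axl KO for 9 of 10, 5 with an unadjusted p under 0.05, and their part in the result was not tested. Hypoxia targets gave 11 higher and 7 lower of 18 tested (median 0.02, Bnip3 higher and Adm lower with an unadjusted p under 0.05). Lipogenic targets of SREBP1 and ChREBP gave 11 higher and 8 lower of 19 tested (median 0.06, Elovl5 and Gpam higher with an unadjusted p under 0.05). These were 2 of 18 and 2 of 19 genes, against 8.40% of all tested genes.

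Among lists of cell type markers, fibroblast genes had a lower mean in Axl KO for 5 of 5 (sum 352.9 to 593.1 CPM against 513.7 to 685.6 CPM in WT). Of these, 1 had an unadjusted p under 0.05 (edgeR), where 3.86% of all tested genes were lower with such a p. None of the fibroblast genes passed the adjusted threshold. Macrophage genes summed to 109.2 to 201.3 CPM against 118.6 to 188.4 CPM, endothelial genes to 395.9 to 502.9 against 383.4 to 542.2 CPM, erythroid genes to 303.0 to 571.2 against 378.1 to 534.0 CPM, and general adipocyte genes to 9096 to 11390 against 9099 to 10290 CPM. T and B cell genes summed to 1.27 CPM or less in every mouse.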
